A study of Mus musculus with 6 samples.

Results

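The genes described here encode the nuclear subunits of the mitochondrial respiratory chain, together with factors that assemble it, measured in mouse colon. They were chosen by symbol: every gene whose array symbol begins with Ndufa, Ndufb, Ndufc, Ndufs, Ndufv, Sdh, Uqcr, Cox4, Cox5, Cox6, Cox7, Cox8 or Atp5, plus Cycs and Cyc1, represented by the brightest probe set that names that gene alone. This gave 96 of 18193 genes. The samples were pieces of proximal colon and of distal colon from female C57BL/6J mice, an inbred strain, that received no treatment, with 3 libraries labelled proximal and 3 labelled distal, each hybridised to 1 array. Both regions came from the same 3 animals per the design text, the labels do not say which libraries share an animal, and no age is given. The pieces were homogenised whole, so fewer cells of a type and less RNA per cell cannot be told apart.

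The respiratory chain sits in the inner mitochondrial membrane. Complex I takes electrons from NADH and complex II takes them from succinate, both pass them to ubiquinone, complex III hands them to cytochrome c, and complex IV delivers them to oxygen. The protons pumped on the way drive complex V, the ATP synthase. In the colon the absorptive epithelium is known for burning butyrate from bacterial fermentation in its mitochondria, and each complex is put together with the help of assembly factors that are not part of the finished enzyme.

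By complex, the 96 genes were 42 of complex I (6 core subunits, 28 accessory subunits and 8 assembly factors), 8 of complex II (4 subunits and 4 assembly factors), 9 of complex III, cytochrome c itself, 19 of complex IV and 17 of complex V. The symbol rule thus took in 12 assembly factors, whose symbols begin with Ndufaf or Sdhaf. Ndufa4 and Ndufa4l2 were counted with complex IV, where the protein of Ndufa4 is now placed. Among the genes of complex IV, 8 were isoforms known from particular tissues, such as the muscle form Cox7a1.

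A pair of libraries went against their labels, which bears on every comparison. Hoxb13, a homeobox gene of the hindmost gut, lay between 13.29 and 13.78 on the log2 scale in the libraries labelled proximal 1, distal 1 and distal 2, and between 6.48 and 6.65 in those labelled proximal 2, proximal 3 and distal 3. Samples are therefore named by their labels, and each result is given both with all 6 libraries as labelled and without the libraries labelled proximal 1 and distal 3. The second comparison, called the 4-library comparison below, was chosen with the data known. It describes distal 1 and 2 against proximal 2 and 3 only, and its p-values overstate the evidence because libraries were left out for their own profiles. Array medians over the probe sets that name 1 gene ran from 8.38 to 8.48. The number of arrays limits the precision.

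As labelled, most respiratory chain genes had a difference slightly below 0, and none passed the test. Limma called 0 of the 96 genes at an adjusted p of 0.05, where it called 0 of all 18193 genes (0%). Adjusted p-values of the 96 ran from 0.824 to 0.982. An unadjusted p under 0.05 was found for 3 of the 96 genes in the lower direction, Sdhaf3, Atp5l and Sdhaf4 (3.12%), against 2.14% of all genes, and 0 higher, against 0.901%. The 3 distal values lay below the 3 proximal values for 8 genes (8.33%), against 4.6% of all genes, and above them for 0, against 2.73%. These 8 genes were Sdhaf1, Sdhaf3, Sdhaf4, Atp5l, Atp5mpl, Ndufa4, Ndufa7 and Uqcr10. The difference, distal minus proximal, was below 0 for 89 of the 96, against 53.7% of all genes, and its median was -0.10 on the log2 scale, against -0.02 over all genes. This median was -0.04 without distal 2 and -0.17 without distal 3, and that of the 12 assembly factors, -0.33 with all libraries, was then -0.23 and -0.51.

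In the 4-library comparison, 17 of the 96 respiratory chain genes were lower in distal libraries and 0 were higher (limma, adjusted p of 0.05 over all genes). Calls in either direction made up 19.2% of all genes, calls lower in distal libraries 11.5% and calls higher 7.71%, beside 17.7% and 0% of the 96, so that the share of the 96 called at all was near the background. The difference was below 0 for 90 of the 96, against 56.1% of all genes, with a median of -0.21 against -0.045 over all genes. Both distal values lay below both proximal values for 73 of the 96, against 36.6% of all genes. The differences were small: the lowest, that of Ndufaf6, was -1.10, and the highest, that of Cox4i2, was 0.06. The 17 calls were Cycs, 3 genes of complex III, 4 accessory subunits and 5 assembly factors of complex I, 2 assembly factors of complex II, 1 gene of complex IV and 1 of complex V. With 1 more library left out, all 17 kept their direction, but the calls went to 0 when proximal 2, proximal 3 or distal 2 was the library removed. Removing distal 1 left 8 calls, 5 of them among the 17.

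The scaling of the arrays changed the level of these differences. Of all genes called, 40.1% were higher in distal libraries with the deposited values, 50.3% after quantile normalization and 54.7% after centring each array on its median, and the median difference of all genes went from -0.045 to 0.0069 and 0.045. That of the 96 went from -0.21 to -0.19 and -0.12, so that it stayed below that of all genes by -0.16, -0.19 and -0.16. Genes of the 96 below 0 numbered 89 after quantile normalization, against 49% of all genes, and 79 after median centring, against 44%. Median centring ended the calls of Uqcrfs1, Uqcr11, Ndufa10, Ndufs4, Ndufab1, Sdhaf4 and Atp5l, and quantile normalization that of Sdhaf4. After quantile normalization 16 of the 96 were called lower in distal libraries, against 9.44% of all genes, and 0 higher, against 9.55%. After median centring 10 were called lower, against 8.56%, and 0 higher, against 10.4%. The mean of each gene's probe sets gave 19 lower of the 96, against 13.3% of all genes, a trended robust prior gave 35, against 14.8%, and leaving out dim genes gave 25 of 87, against 21.6%. Calls higher were 0 under these settings too, against 8.04%, 10.3% and 14% of all genes.

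**Figure D1:**
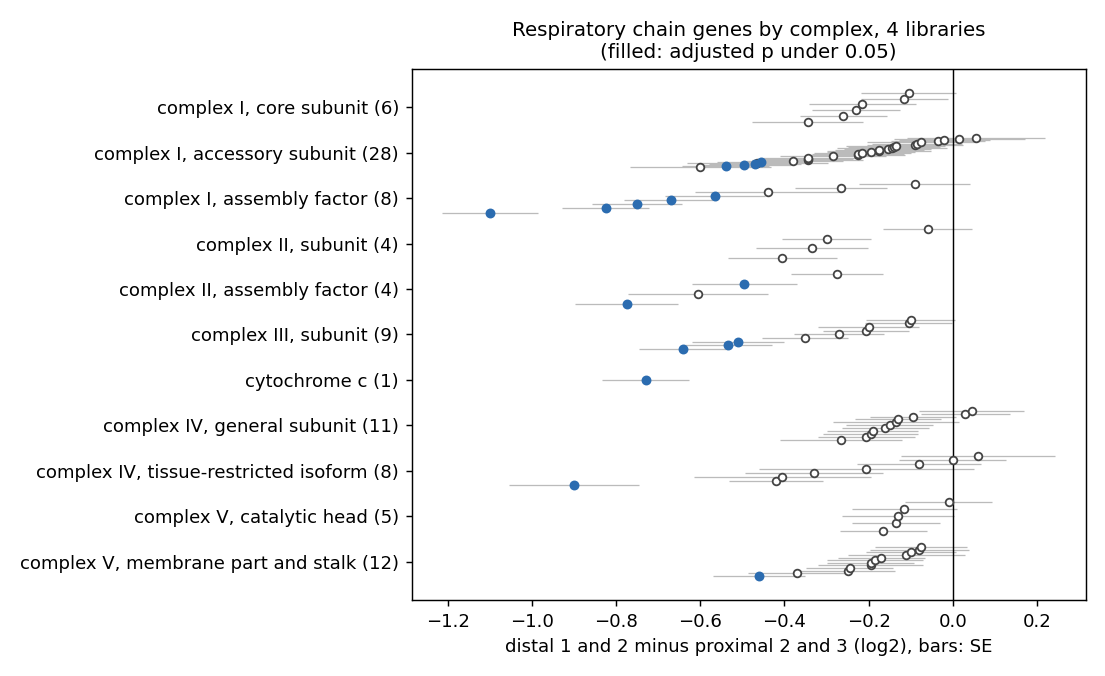
Difference between the libraries labelled distal 1 and 2 and those labelled proximal 2 and 3 (log2, horizontal axis) for each of the 96 respiratory chain genes, grouped by complex and role, with bars for the SE and filled points for a limma adjusted p under 0.05. The 12 assembly factors reach furthest to the left, down to -1.10, and of complexes IV and V only Cox7a1 at -0.90 and Atp5l at -0.46 are filled.

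Cytochrome c, the small haem protein that carries electrons from complex III to complex IV, had the lowest difference among the general components of the chain. Cycs, which encodes it, measured 13.40, 13.82 and 13.77 in proximal 1, 2 and 3, against 13.06, 13.07 and 13.68 in distal 1, 2 and 3. Distal 1 and 2 were the lowest, distal 3 lay among the proximal values, and proximal 1 lay between. As labelled the means were 13.66 ± 0.23 (SD, n = 3) in proximal and 13.27 ± 0.36 (SD, n = 3) in distal libraries. The groups overlapped, and the means differed by -0.39 (SE 0.21, limma adjusted p = 0.824). In the 4-library comparison the difference was -0.73 (SE 0.10, limma adjusted p = 0.0106), which puts the distal level at 60.3% of the proximal one. All 4 probe sets of Cycs had a lower mean in distal 1 and 2, by -0.73, -0.46, -0.71 and -0.41. The last was dim, with a mean of 5.86, under the lower quartile of gene values (6.54). Its distal 2 value (5.85) lay above its proximal 2 value (5.75).

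Complex III had 3 of its 9 genes lower in distal libraries in the 4-library comparison, and the other 6 did not pass. Uqcrfs1 encodes the Rieske iron-sulfur protein, which takes electrons from ubiquinol. It measured 13.09, 13.50 and 13.53 in proximal 1, 2 and 3, and 13.07, 12.94 and 13.46 in distal 1, 2 and 3. Here proximal 1 was as low as distal 1, and distal 3 as high as proximal 2. Its 4-library difference was -0.51 (SE 0.11, limma adjusted p = 0.0330; 0.0629 under median centring), and as labelled it was -0.22 (SE 0.19, limma adjusted p = 0.824). Uqcrq, a small subunit that lies near the ubiquinone pocket, measured 13.10, 13.31 and 13.33 in proximal and 12.72, 12.64 and 13.28 in distal libraries. Its 4-library difference was -0.64 (SE 0.11, limma adjusted p = 0.0160), but the mean of its 4 probe sets gave -0.38 and did not pass (limma adjusted p = 0.0541).

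Uqcr11, the smallest subunit of complex III, did not follow Hoxb13 in proximal 1. It measured 12.90, 13 and 12.94 in proximal 1, 2 and 3, and 12.47, 12.40 and 12.93 in distal 1, 2 and 3, so that proximal 1 stood with the other proximal libraries. Its 4-library difference was -0.54 (SE 0.11, limma adjusted p = 0.0267; 0.0508 under median centring). The haem subunit Cyc1 differed by -0.35 (SE 0.10) and did not pass (limma adjusted p = 0.0702). The large core proteins Uqcrc1 and Uqcrc2 differed by -0.27 and -0.20, and Uqcr10 and Uqcrh by -0.21 and -0.11. The less bright probe sets of Uqcr10, with means of 12.03 and 11.31, gave -0.42 and -0.52. Uqcrb had the highest value of the complex, -0.10, with 14.21, 14.23 and 14.16 in proximal and 14.07, 14.12 and 14.19 in distal libraries, which overlap. All 9 genes of the complex were thus below 0, with a median of -0.27.

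**Figure D2:**
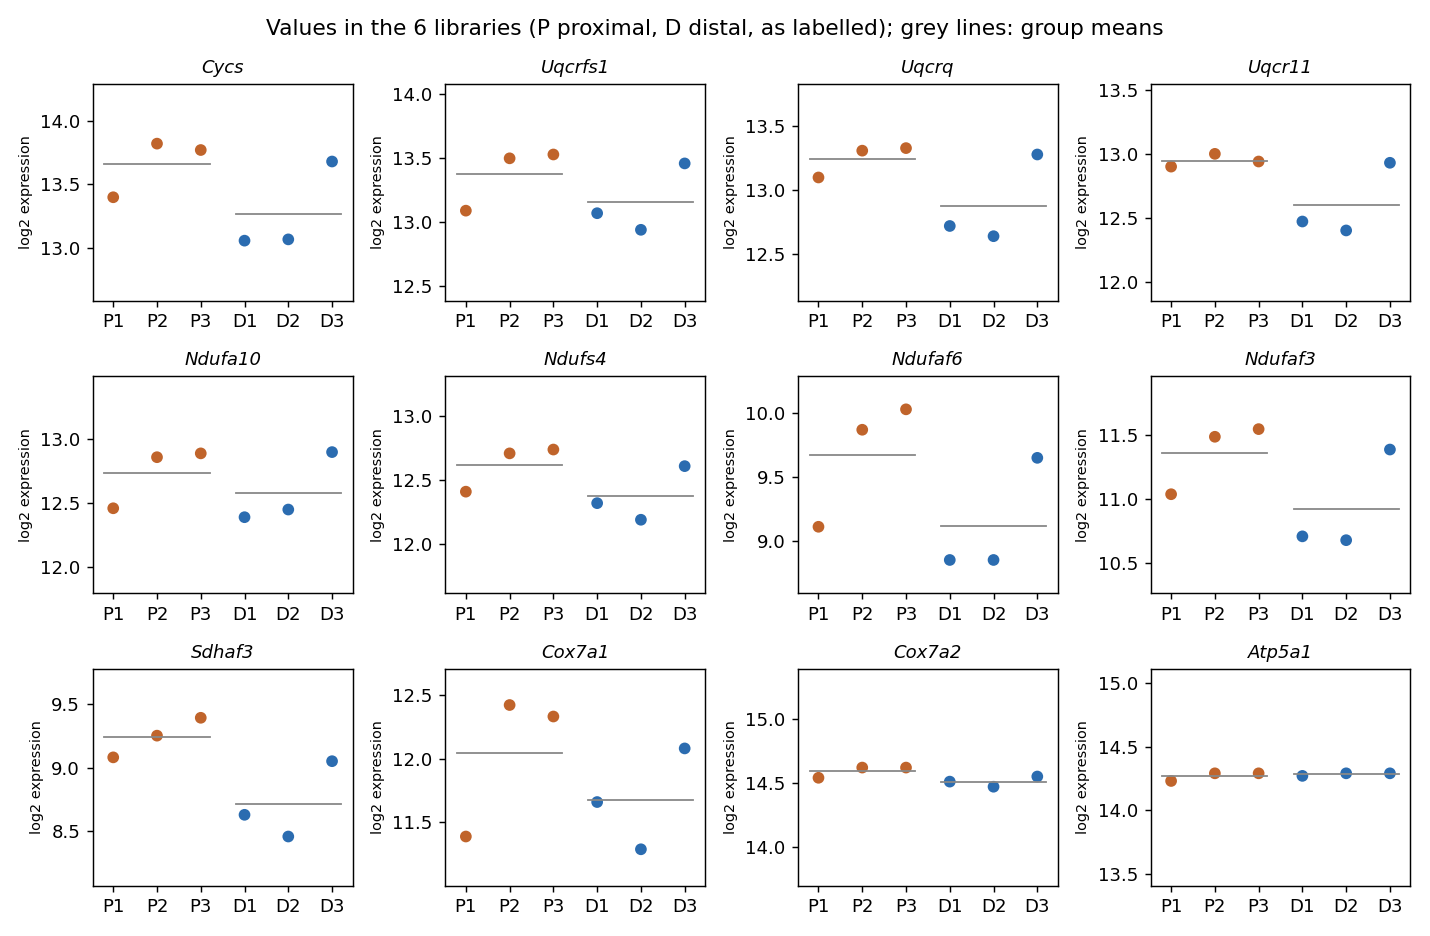
Log2 expression of 12 respiratory chain genes in the 6 libraries, named by their labels (P proximal, D distal), with grey lines for the labelled group means and vertical axes of equal span. D1 and D2 are lowest or near lowest for Cycs, Uqcrfs1, Uqcrq and Uqcr11, D3 stands with the proximal libraries, and the bright probe sets shown for Cox7a2 and Atp5a1 vary little across all 6.

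Of the 6 core and 28 accessory subunits of complex I, 4 were lower in distal libraries in the 4-library comparison and 30 did not pass. All 4 were accessory subunits, which surround the catalytic core. Ndufa10, a subunit of the membrane arm, measured 12.46, 12.86 and 12.89 in proximal 1, 2 and 3, and 12.39, 12.45 and 12.90 in distal 1, 2 and 3. Proximal 1 was level with distal 1 and 2. The 4-library difference was -0.46 (SE 0.10, limma adjusted p = 0.0385; 0.0692 under median centring), and its other probe set gave -0.58. As labelled the difference was -0.16 (SE 0.19, limma adjusted p = 0.846).

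Ndufs4, an iron-sulfur fraction subunit of the NADH-oxidising arm, measured 12.41, 12.71 and 12.74 in proximal and 12.32, 12.19 and 12.61 in distal libraries. Its 4-library difference was -0.47 (SE 0.11, limma adjusted p = 0.0407; 0.0807 under median centring). The call depends on the probe set: a second gave -0.50, the other two gave 0.33 and 0.13, and the mean of all 4 gave -0.13 (limma adjusted p = 0.425). Ndufab1, the mitochondrial acyl carrier protein, measured 13.13, 13.45 and 13.47 in proximal and 13.03, 12.90 and 13.41 in distal libraries, with proximal 1 between the others. It differed by -0.50 (SE 0.11, limma adjusted p = 0.0354; 0.0693 under median centring), but the mean of its 5 probe sets, 4 of them below 0, gave -0.31 and did not pass (limma adjusted p = 0.0879). Ndufb1 measured 7.55, 7.84 and 7.81 in proximal and 7.30, 7.27 and 7.64 in distal libraries, with distal 1 and 2 the lowest. It differed by -0.54 (SE 0.10, limma adjusted p = 0.0242), on a probe set that was dim throughout.

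The 6 core subunits, among which are the carriers of the flavin and iron-sulfur centres, lay within a narrow band. Their 4-library differences ran from -0.35 for Ndufs8 to -0.11 for Ndufs7, and 0 of 6 passed. Among the 24 accessory subunits that did not pass, the differences ran from -0.60 for Ndufb2 (SE 0.17, limma adjusted p = 0.0638) to 0.06 for Ndufb4. Ndufb4 measured 5.25, 5.30 and 4.97 in proximal and 5.06, 5.32 and 5.28 in distal libraries. These overlap, and at such levels, under the lower quartile of the values of all genes (6.54), the array may read background.

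Assembly factors gave the lowest differences. In the 4-library comparison 7 of 12 were lower in distal libraries (58.3%) with a median difference of -0.59, while 10 of the 84 subunits and cytochrome c were (11.9%), with a median of -0.20. As labelled the medians were -0.33 and -0.087, with 0 called in either set. The assembly factors were also dimmer, with means between 8.98 and 12.2, and the share of genes called differed with level. Calls lower in distal libraries were 6.4% of all genes with a mean of at least 13 and 12.6% of those between 11 and 13. They were 16.7% of those between 9 and 11 and 8.76% of those under 9. Of the 96 genes, 5 of 57, 7 of 22, 3 of 8 and 2 of 9 in these ranges were called. With assembly factors left out, 4 of the 17 genes with a mean of 11 to 13 were called (23.5%), with a median of -0.35. Those with a mean of at least 13 had 5 of 57 called (8.77%) and a median of -0.175. The subunits with a mean of 11 to 13 lay between 11.86 and 12.985, while the means of the 12 assembly factors had a median of 10.82. Of the assembly factors with a mean of 11 to 13, Ndufaf2, Ndufaf3 and Sdhaf4 were called, and Ndufaf4 and Ndufaf8 were not. The part that signal level has in the contrast between assembly factors and subunits was not tested.

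Ndufaf6, needed early in building the membrane arm of complex I, measured 9.11, 9.87 and 10.03 in proximal 1, 2 and 3, and 8.85, 8.85 and 9.65 in distal 1, 2 and 3. Proximal 1 stood near distal 1 and 2, and distal 3 near proximal 2. The 4-library difference was -1.10 (SE 0.11, limma adjusted p = 0.0044), with the distal level at 46.7% of the proximal one. As labelled the groups overlapped, and the difference was -0.55 (SE 0.32, limma adjusted p = 0.824).

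Ndufaf3, which works with Ndufaf4 on an early intermediate of complex I, measured 11.04, 11.49 and 11.55 in proximal and 10.71, 10.68 and 11.39 in distal libraries. Its 4-library difference was -0.83 (SE 0.10, limma adjusted p = 0.0077), while its partner Ndufaf4 differed by -0.27 (SE 0.11) and did not pass (limma adjusted p = 0.157). The other probe set of Ndufaf4, with a mean of 11.025 against 11.495, gave -0.51. Ndufaf1, part of the assembly complex for the membrane arm, measured 9.72, 10.25 and 10.15 in proximal and 9.45, 9.45 and 10.05 in distal libraries. Ndufaf5, which modifies the core subunit Ndufs7, measured 10.14, 10.56 and 10.61 in proximal and 9.98, 9.85 and 10.51 in distal libraries. In both, distal 1 and 2 were the lowest, proximal 1 came next and distal 3 stood with the proximal libraries. Their differences were -0.75 and -0.67 (limma adjusted p = 0.0107 and 0.0163). Ndufaf2, a late-acting factor, had 11.03, 11.25 and 11.43 in proximal and 10.81, 10.74 and 11.22 in distal libraries, a difference of -0.57 (limma adjusted p = 0.0303). Ndufaf7 had 10.88, 10.97 and 11 in proximal and 10.76, 11.03 and 10.96 in distal libraries, which overlap. Ndufaf8, the partner of Ndufaf5, differed by -0.44 and Ndufaf7, a methyltransferase, by -0.09, and neither passed.

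Of the 4 assembly factors of complex II, Sdhaf3 and Sdhaf4 were lower in distal libraries. Sdhaf3, which helps mature the iron-sulfur subunit Sdhb, measured 9.08, 9.25 and 9.39 in proximal 1, 2 and 3, and 8.63, 8.46 and 9.05 in distal 1, 2 and 3. The labelled groups did not overlap, though distal 3 lay only just below proximal 1. The difference was -0.53 as labelled (SE 0.18, limma adjusted p = 0.824, unadjusted p = 0.0239) and -0.78 in the 4 libraries (SE 0.12, limma adjusted p = 0.0145). Its second probe set gave 0.085, and the mean of both did not pass (limma adjusted p = 0.0713). Sdhaf4, which handles the flavin subunit Sdha, had 11.37, 11.54 and 11.44 in proximal and 11.10, 10.89 and 11.34 in distal libraries, with no overlap. It differed by -0.50 (limma adjusted p = 0.0489; 0.0677 under quantile normalization and 0.0991 under median centring). Sdhaf1 differed by -0.61 and did not pass (limma adjusted p = 0.0614). The 4 subunits themselves did not pass, with differences of -0.41 for Sdhb, -0.34 for Sdhc, -0.30 for Sdhd and -0.06 for Sdha, the last of which changed sign under median centring (0.03) and with the mean of probe sets (0.19). Sdha measured 13.46, 13.64 and 13.61 in proximal and 13.53, 13.60 and 13.62 in distal libraries, and proximal 1 was its lowest.

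**Figure D3:**
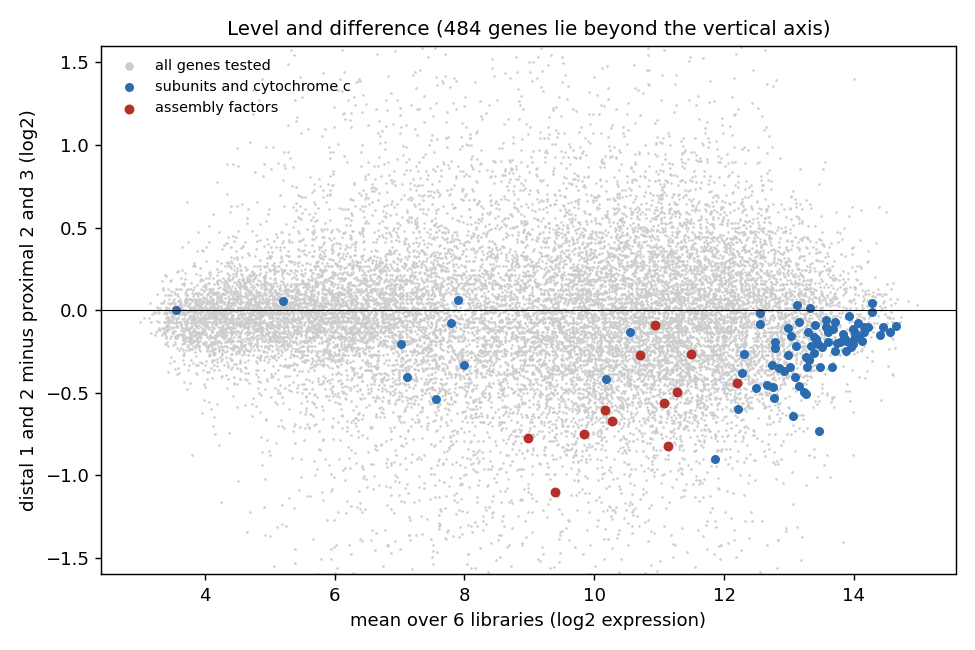
Mean log2 expression over 6 libraries (horizontal axis) against the 4-library difference (vertical axis) for all 18193 genes in grey, subunits and cytochrome c in blue and assembly factors in red; 484 genes lie beyond the vertical axis. Most subunits crowd between means of 12 and 15 just below 0, and the assembly factors sit further left and lower.

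Promoters of respiratory chain genes are known for binding sites of NRF1 and of ETS family factors such as GABP, and the start regions of assembly factors that were called are shown because they hold such letters. Promoters here are windows of 300 bases, 250 before the start and 50 after it, from RefSeq on the build GRCm38.p6, and 79 of the 96 genes matched, with 84 windows. Each motif was searched on both strands. The NRF1 motif, GCGCA, any base and GCGC, was found in 20 of 84 windows (23.8%), against 7.43% of the 18109 windows of tested genes. The ETS core CGGAAG was found in 39 (46.4%), against 23.7%, and the YY1 motif AAGATGGC in 10 (11.9%), against 3.38%. The Sp1 motif GGGCGG was found in 48.8%, against 52.3%, the CCAAT box in 41.7%, against 37.4%, and the ERR motif TCAAGGTCA in 2.38%, against 0.342%. Of the 57 ETS matches in these windows 3 overlapped another of the motifs, each an Sp1 match, and 0 of the 26 NRF1 matches did. Genes called in the 4-library comparison held the NRF1 motif in 3 of 15 windows (20%) and the ETS core in 7 of 15 (46.7%), and the genes not called in 24.6% and 46.4% of their windows. The 3 called genes with the NRF1 motif were Ndufaf5, Sdhaf3 and Sdhaf4. Their windows follow from 150 bases before the start to 30 after it, with that of Cycs, the called electron carrier, in which neither motif was matched. Capitals mark the NRF1 and ETS matches.
Ndufaf5, chr2:140170496-140170675, plus strand: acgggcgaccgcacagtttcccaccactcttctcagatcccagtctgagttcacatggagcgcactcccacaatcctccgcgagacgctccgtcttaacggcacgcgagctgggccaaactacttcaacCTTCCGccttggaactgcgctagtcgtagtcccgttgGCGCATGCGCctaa
Sdhaf3, chr6:6955868-6956047, plus strand: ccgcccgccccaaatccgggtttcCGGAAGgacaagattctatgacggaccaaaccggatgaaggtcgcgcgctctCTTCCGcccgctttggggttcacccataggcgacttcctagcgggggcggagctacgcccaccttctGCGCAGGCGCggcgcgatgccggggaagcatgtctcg
Sdhaf4, chr1:24005611-24005790, minus strand: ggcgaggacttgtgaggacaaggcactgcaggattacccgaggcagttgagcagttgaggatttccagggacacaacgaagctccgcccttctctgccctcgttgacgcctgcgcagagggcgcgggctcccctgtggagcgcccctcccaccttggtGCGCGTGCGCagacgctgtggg
Cycs, chr6:50566540-50566719, minus strand: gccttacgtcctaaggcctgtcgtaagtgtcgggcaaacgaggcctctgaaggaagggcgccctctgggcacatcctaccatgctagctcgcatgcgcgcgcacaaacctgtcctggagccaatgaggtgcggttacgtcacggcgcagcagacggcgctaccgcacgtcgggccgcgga
A match describes letters in a window, and the absence of one says only that these letters are not in it. The 3 NRF1 matches lay between positions -7 and 26, counted from the start.

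Of the general subunits of complex IV 0 of 11 passed in the 4-library comparison, with differences from -0.27 for Ndufa4 to 0.045 for Cox6a1. Many of these were read from probe sets near the top of the scale, whose highest deposited value was 15.07. Less bright probe sets gave near values for Cox6b1 (-0.15 by its brightest, and -0.175), Cox7a2 (-0.13, and -0.15) and Cox6c (-0.195, and -0.22). The same held for Cox5a (-0.19, and -0.19 and -0.115) and Cox7a2l (0.03, and 0.055 and 0.025). The less bright probe set of Cox6a1 gave -0.27, and those of Cox8a, at -0.16 by its brightest, gave -0.215 and 0.215. The 5 others of Cox5b, at -0.095 by its brightest, gave -0.12, -0.14, -0.28, 0.36 and -0.21. The last was dim, with a mean of 4.72. Whether signal near the top of the scale reduced these differences was not tested. Cox7a1 was the exception among its isoforms, 1 of 8 that passed. Cox7a1, the form known from heart and skeletal muscle and brown fat, measured 11.39, 12.42 and 12.33 in proximal 1, 2 and 3, and 11.66, 11.29 and 12.08 in distal 1, 2 and 3. The groups overlapped fully as labelled, with the lowest values in distal 2 and proximal 1. Its 4-library difference was -0.90 (SE 0.15, limma adjusted p = 0.0181), with the distal level at 53.6% of the proximal one, and as labelled it was -0.37 (SE 0.33, limma adjusted p = 0.824).

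Cox7a2, the general form that takes the same place in the enzyme, lay between 14.47 and 14.62 in all 6 libraries and differed by -0.13 (SE 0.10, limma adjusted p = 0.433). The log2 ratio of Cox7a1 to Cox7a2 was -3.15, -2.20 and -2.29 in proximal 1, 2 and 3, and -2.85, -3.18 and -2.47 in distal 1, 2 and 3. Only changes in this ratio between libraries can be read, since the probes differ. As labelled it differed by -0.29 (exact permutation test, two-sided, p = 0.5, smallest possible 0.1), and in the 4 libraries by -0.77. The same ratio was computed for 6 pairs of isoforms, and as labelled the exact permutation p-values ran from 0.3 to 0.7, each 0.7 after Benjamini-Hochberg adjustment. In the 4 libraries the others differed by 0.27 for Cox4i2 over Cox4i1, -0.27 for Cox6b2 over Cox6b1, -0.25 for Cox8b over Cox8a, -0.13 for Cox6a2 over Cox6a1 and -0.065 for Ndufa4l2 over Ndufa4. Their levels in the 6 libraries ran from 7.61 to 8.10 for Cox4i2 and 13.80 to 14.10 for Cox4i1, 7.53 to 7.93 for Cox6a2 and 14.17 to 14.46 for Cox6a1, and 9.85 to 10.46 for Cox6b2 and 14.30 to 14.48 for Cox6b1. Those of Cox8b ran from 6.68 to 7.51, of Cox8a from 13.27 to 13.52, of Ndufa4l2 from 7.54 to 8.32 and of Ndufa4 from 11.97 to 12.58. Ndufa4 alone of these 10 had all 3 distal values below the proximal ones. The tissue-restricted forms other than Cox7a1 and Cox6b2 were dim, with means from 3.55 for Cox7b2 to 7.99 for Ndufa4l2.

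Of the 17 genes of complex V only Atp5l passed in the 4-library comparison. Atp5l, subunit g of the membrane part, measured 13.30, 13.39 and 13.28 in proximal 1, 2 and 3, and 12.91, 12.84 and 13.21 in distal 1, 2 and 3, so that the labelled groups did not overlap and proximal 1 stood with the proximal libraries. Its difference was -0.34 as labelled (SE 0.13, limma adjusted p = 0.824, unadjusted p = 0.0363) and -0.46 in the 4 libraries (SE 0.11, limma adjusted p = 0.0423; 0.0899 under median centring). Of the catalytic head 0 of 5 subunits passed, with differences of -0.17 to -0.01. Atp5a1, its alpha subunit, lay between 14.23 and 14.29 in all 6 libraries on its brightest probe set, near the top of the scale. Its less bright probe sets gave -0.065 and -0.19, the last with values from 13.73 to 13.98. The other 11 genes of the membrane part and stalk differed by -0.37, for Atp5md, to -0.075, for Atp5j.

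The position of each library was read over all 96 genes. After each gene was centred on its 6-library mean, the 96 genes had medians of -0.033, 0.093 and 0.10 in proximal 1, 2 and 3, and -0.08, -0.19 and 0.093 in distal 1, 2 and 3. Over all genes these medians ran from -0.048 to 0.028. Distal 3 lay nearer the pair proximal 2 and 3 than the pair distal 1 and 2 for 82 of the 96 genes (85.4%), against 70.9% of all genes, and for 17 of the 17 called, against 90.1% of all genes called. Proximal 1 lay nearer the distal pair for 54 of the 96 (56.3%), close to the 57.2% of all genes, and for 12 of the 17 (70.6%), against 75.6% of all 3494 genes called. The 5 called genes in which it lay nearer the proximal pair were Sdhaf3, Sdhaf4, Uqcrq, Uqcr11 and Atp5l. Distal 2 alone held the lowest value of the 6 libraries for 66 of the 96 genes (68.8%), against 28.2% of all genes. In the 4-library comparison without distal 2, the median difference of the 96 was -0.17 and that of the assembly factors was -0.46. As labelled without distal 2, these medians were -0.04 and -0.23.

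**Figure D4:**
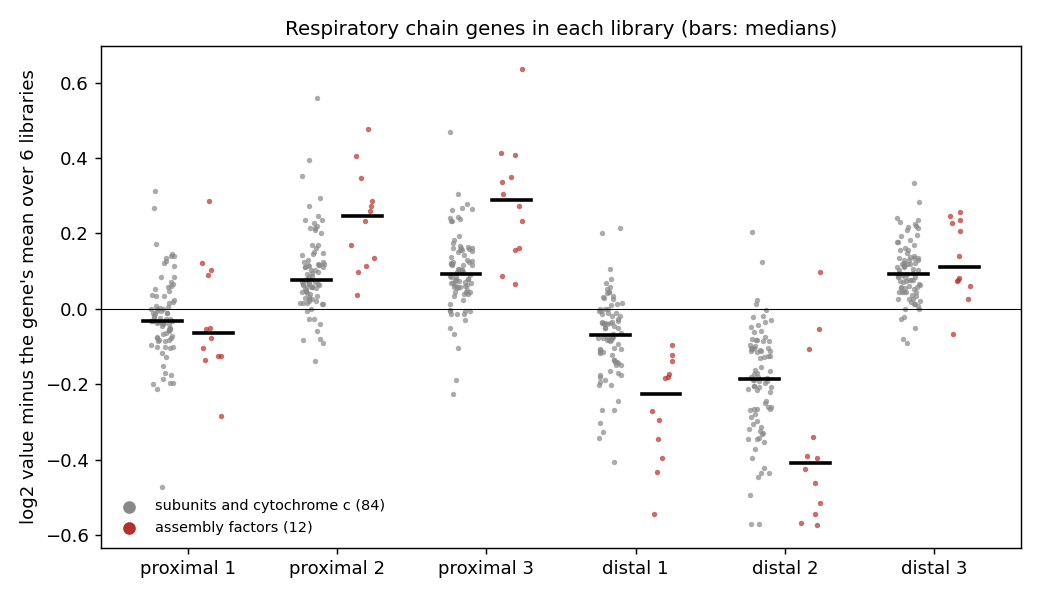
Each gene's log2 value minus its mean over the 6 libraries (vertical axis), by labelled library, for 84 subunits and cytochrome c (grey) and 12 assembly factors (red), with bars for the medians. Distal 1 and distal 2 lie below 0 and proximal 2, proximal 3 and distal 3 above it, distal 2 is the lowest, with a median of -0.41 for assembly factors, and proximal 1 is near 0.

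Markers of the cells in the pieces were read beside these values, and their part in the results was not tested. For the counts of markers called below, 11.5% of all genes were called lower in the 4-library comparison and 7.71% higher. The mean level of 10 epithelial markers was 14.09 to 14.28 in proximal and 14.16 to 14.27 in distal libraries, and 1 of 10, Krt20, was lower in distal libraries in the 4-library comparison. The 10 smooth muscle markers averaged 12.79 to 13.11 in proximal and 13.07 to 13.22 in distal libraries, with 1, Des, higher. Their difference was below 0 for 0 of 10 as labelled (median 0.19) and for 1 of 10 in the 4 libraries (median 0.25), the direction opposite to most of the 96. Of 7 measured adipocyte markers 2 were lower, Cidec and Cidea, with a mean level of 8.75 to 9.50 in proximal and 8.01 to 9.16 in distal libraries, and Cidea and Ucp1, which mark brown fat, averaged 6.25 and 5.52, under the lower quartile of gene values. Among 11 striated muscle markers, which averaged 6.71 to 6.94 over the 6 libraries, 2 were lower and 3 higher. The 2 lower were Acta1, skeletal actin (-0.90), and Ckm, the muscle creatine kinase (-0.88), beside -0.90 for the muscle form Cox7a1. Acta1 had 7.42, 8.58 and 8.56 in proximal 1, 2 and 3, and 7.70, 7.65 and 9.29 in distal 1, 2 and 3. Ckm had 7.72, 8.52 and 8.45 in proximal and 7.68, 7.54 and 8.92 in distal libraries. Both were low in proximal 1, distal 1 and distal 2, as Cox7a1 was. The 3 higher markers, Myh2 (0.88), Tnni2 (0.70) and Tnnt3 (0.61), went the other way and were highest in these same libraries. The median of the 11 was -0.05. Pericyte markers gave 1 lower of 7 (proximal 9.58 to 9.76, distal 9.46 to 9.84), leukocyte markers 2 lower and 1 higher of 7 (proximal 9.95 to 10.06, distal 9.74 to 9.84), and neuronal markers 2 higher of 7 (proximal 9.03 to 9.68, distal 9.32 to 9.70). The neuronal markers were below 0 for 0 of 7 in the 4 libraries, with a median of 0.34, and for 1 of 7 as labelled, with a median of 0.08. In the 4 libraries adipocyte markers were below 0 for 6 of 7 (median -0.47), leukocyte markers for 6 of 7 (-0.20), pericyte markers for 5 of 7 (-0.25) and epithelial markers for 8 of 10 (-0.073). The 7 measured pancreatic acinar markers averaged 12.38 in proximal 1 and 12.28 in distal 1, against 5.89 to 6.46 in the other libraries. In the 4-library comparison without distal 1 the 17 called genes kept their direction, and the median difference of the 96 genes was -0.28.

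Genes around the chain did not all move with it. Of 16 measured genes that feed electrons to ubiquinone or make it, 9 were lower in distal libraries in the 4-library comparison and 0 higher, with a median of -0.48. They include Prodh, proline dehydrogenase (-1.14), the ubiquinone synthesis genes Coq4 (-1.08), Coq3 (-0.83) and Coq5 (-0.67), and Etfa, Etfb and Etfdh, which pass electrons from fatty acid oxidation (-0.52, -0.53 and -0.47). Of 30 assembly genes outside the symbol rule 10 were lower and 1 higher, with a median of -0.35: Cox16, Cox11, Cox19 and Sco1, all of complex IV, differed by -0.99, -0.71, -0.65 and -0.64, while Ttc19, of complex III, differed by 0.72. Of 15 enzymes of the Krebs cycle and pyruvate entry only Dld, the shared dehydrogenase subunit, was lower (-0.82), and the median was -0.12. The shares called lower were thus 56.25%, 33.3% and 6.67%, in this order, against 11.5% of all genes. Calls higher made up 7.71% of all genes. All these lists had 0 genes called as labelled.

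Regulators of mitochondrial gene expression ran in both directions. Of 19 genes 4 were higher in distal libraries in the 4-library comparison, where 7.71% of all genes were called higher. Another 2 were lower (10.5%), near the 11.5% of all genes, and the median was -0.02. Ppargc1a, the coactivator known to raise mitochondrial content, measured 11.39, 10.72 and 10.78 in proximal 1, 2 and 3, and 11.57, 11.65 and 10.86 in distal 1, 2 and 3. It was thus high in the same libraries as Hoxb13, proximal 1 included, and its 4-library difference was 0.86 (SE 0.10, limma adjusted p = 0.00734). Nrf1, the factor whose motif was searched above, differed by 0.69, and Ppargc1b and the nuclear receptor Esrrg by 0.60 each. Tfam, which packages and transcribes mitochondrial DNA, and the methyltransferase Tfb1m differed by -0.45 and -0.51.

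Exchange of nucleotides and uncoupling had 2 of 12 genes higher, the mitochondrial creatine kinases Ckmt2 (1.22) and Ckmt1 (0.61), and 1 lower, the outer membrane channel Vdac3 (-0.49), with a median of -0.04. Hypoxia-linked and glycolytic genes had 2 of 19 higher, Epas1 (0.67) and Egln3 (0.55), and 2 lower, Pfkl (-1) and Higd1a (-0.88). Their median was 0.035. Calls lower were 8.33% and 10.5% of these lists, near the 11.5% of all genes, and 7.71% of all genes were called higher.

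**Figure D5:**
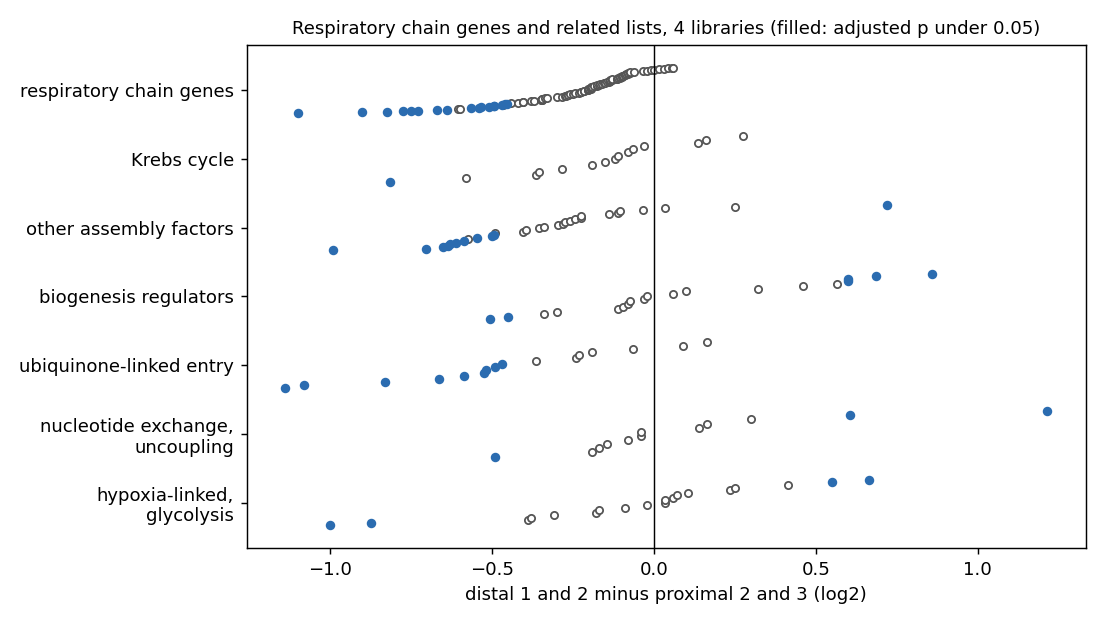
4-library differences (log2, horizontal axis) of the 96 respiratory chain genes and of 6 related lists, 1 point per gene, filled where the limma adjusted p was under 0.05. Ubiquinone-linked genes lie mostly below 0 with 9 of 16 called, and the biogenesis regulators have 4 called above 0 and 2 below.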

How the data were processed

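Total RNA of 6 tissue samples was amplified to cDNA, labelled with biotin and hybridised to 1 array each, per the labels' protocols. The deposited values are log2 expression per probe set, made by the authors with RMA in Partek 6.5, per the submitters' processing notes. The array medians over probe sets of 1 gene run from 8.38 to 8.48. Since these are only part of the probe sets, the medians cannot tell whether the whole arrays share 1 distribution. Of 45101 probe sets, 64 controls, 932 with several symbols and 9160 with no gene listed were left out. The other 34945 gave 18193 genes, each by its probe set with the highest mean. For 34741 of them the gene identifier gave a current symbol in a RefSeq table of GRCm38.p6.

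All genes were fitted by lmFit and eBayes of limma 3.58.1 (R 4.3.3; two-sided, Benjamini-Hochberg over all genes, threshold 0.05), without a block, after the calculation was tested on simulated data. Differences are distal minus proximal. Since no label ties libraries to animals, p-values reflect the spread among libraries, which may be technical. Isoform ratios were compared by an exact permutation test. By rule, values in every library (for isoform pairs and flat genes their range) were given for called genes, the 4 markers, each complex's extremes and isoform pairs, and up to 4 genes per related list, ranked by adjusted p, were named. Sco1, Etfa, Etfb, Etfdh, Tfam, Tfb1m and the named markers were picked with their values in view. The genes and lists were chosen with earlier results of these data known. Alternatives were a replicate block, leaving out genes under the median of gene means (9.31), the mean of probe sets, 2 scalings, a trended robust prior, each library left out, a threshold of 0.01 and current symbols. The 4-library fit, with its alternatives, was added after seeing the data.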

Additional observations from a re-analysis of the deposited data

How the results depend on the processing

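As labelled, limma called 0 genes and 0 of the 96 respiratory chain genes under every alternative run, each left-out library and the replicate block (0 genes) included, with 554 genes at an unadjusted p of 0.05. Same-numbered libraries deviated together from their labelled group means for numbers 1 and 3 (correlations 0.68 and 0.68) and not for 2 (-0.45). Those means include proximal 1 and distal 3, which went against their labels, so the correlations cannot tell which libraries share an animal. The numbers were not taken as pairs, since no label ties them to animals. No paired analysis was possible because the 4 libraries share 1 number only. Without proximal 1 and distal 3, 3494 genes and 17 of the 96 were called, and median differences were -0.585 for assembly factors, -0.37, -0.27 and -0.165 for complexes II, III and V, with Sdha at -0.06 and Atp5a1 at -0.01. Other signs that turned as labelled, none of a called gene, were Cox6a1 (-0.01) and Atp5a1 (-0.0189) with the mean of probe sets, Cox6a2 after quantile normalization (0.0369) and median centring (0.0367), and Cox8a after median centring (0.00667). With 1 library left out, the median of the 96 ran from -0.17 to -0.04, that of assembly factors from -0.51 to -0.23, Cox4i2 ran from -0.072 to 0.17, Cox6a2 from -0.10 to 0.097, Ndufa4l2 from -0.29 to 0.098, Ndufb4 from -0.055 to 0.13, Sdha from -0.042 to 0.048 and Atp5a1 from -0.0067 to 0.023. In the 4 libraries, the mean of probe sets gave -0.35 for complex III, -0.1125 for Cox6a1 and 0.19125 for Sdha, and quantile normalization -0.23375 for complex III. Median centring gave 10 calls and medians of -0.115 for the 96, -0.495 for assembly factors, -0.105 for subunits with cytochrome c, and -0.1375, -0.18, -0.07 and -0.075 for complexes I, III, IV and V, with Cox6a2 at 0.01, Sdha at 0.03 and Atp5a1 at 0.08. A trended robust prior gave 35 calls and a threshold of 0.01 gave 2. Leaving out 1 of the 4 libraries, where the lone library is assumed to vary like the other pair, gave 146 to 1633 genes and 0 to 8 of the 96, with medians of -0.275 to -0.165 for the 96, -0.70 to -0.46 for assembly factors, -0.26 to -0.13 for subunits, and -0.4975 to -0.2925, -0.315 to -0.245 and -0.225 to -0.12 for complexes II, III and V. Cox4i2 then ran from -0.185 to 0.305, Cox6a2 from -0.25 to 0.09, Cox6a1 from -0.065 to 0.155, Atp5a1 from -0.02 to 0 and Ndufb4 from -0.11 to 0.22. Dim probe sets, such as those of Ndufb4 and Cox7b2, limit what can be read.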
